A study of Homo sapiens with 4 samples.

Results

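The clustered histone genes were taken as every gene whose symbol starts with HIST1H, HIST2H, HIST3H or HIST4H, which gave 73 of the 25680 genes in the deposited count tables: 6 of class H1, 18 of class H2A, 20 of class H2B, 14 of class H3 and 15 of class H4. They were compared between THP-1 cells transduced with a lentivirus that carries an shRNA against PIWIL4 (shPIWIL4, 2 libraries) and THP-1 cells transduced with a lentivirus that carries a scrambled shRNA (Scrambled, 2 libraries). THP-1 is an established human monocytic leukaemia cell line, and PIWIL4 is a member of the PIWI clade of Argonaute proteins. Both groups were sorted by flow cytometry 48 hours after transduction, and total RNA was sequenced after a TruSeq RNA preparation. The sample titles gave the groups; the treatment field of the shPIWIL4 libraries names PIWIL4 but also carries the word scrambled. The labels name 1 shRNA construct for PIWIL4 and do not say whether the 2 libraries of a group came from separate cultures, so the p-values measure the spread between these libraries, which may be technical.

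The libraries held 50689304 and 53657246 counts in shPIWIL4 cells and 31458079 and 51655687 counts in Scrambled cells. PIWIL4 itself had 902 and 904 counts in shPIWIL4 cells, against 1223 and 1963 counts in Scrambled cells, or 17.8 and 17.4 against 38.5 and 37.2 CPM (counts scaled to library size, here by TMM, a normalization that centres most genes). Its log2 fold change was -1.10 (SE 0.09, adjusted p = 1.3e-05 in edgeR's quasi-likelihood test). All 10 monocytic AML markers were present, and their summed level was 14903 and 14296 CPM in shPIWIL4 cells against 3728 and 3724 CPM in Scrambled cells. CTSG and LYZ, which encode a granule protease and lysozyme, made up most of that sum in shPIWIL4 cells. The markers did not move together: CTSG, LYZ, CD68 and FCGR1A were called higher, and CSF1R and MPO lower. CD14, CD33, ITGAM and SPI1 were not called. The 5 T lymphocyte markers summed to 0.513 and 0.693 CPM in shPIWIL4 cells against 1.13 and 1.12 CPM in Scrambled cells, with CD3E and CD2 at 0 in all 4 libraries. The 5 fibroblast markers summed to 0.178 and 0.308 CPM against 1.83 and 2.37 CPM, with COL1A2, COL3A1 and LUM at 0 in all 4 libraries. The 5 B lymphocyte markers summed to 4.87 and 5.12 CPM against 11.4 and 11.2 CPM, and the 5 germ cell markers to 4.89 and 4.54 CPM against 3.08 and 3.03 CPM. SYCP3 gave most of the germ cell sum, with 4.78 and 4.27 CPM against 2.77 and 2.76 CPM. DAZL and TDRD1 were at 0 in all 4 libraries, and MAEL had 1 and 0 counts against 4 and 7 counts. The part of these marker differences in the histone values was not tested.

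Histones are the proteins around which DNA is wrapped: H2A, H2B, H3 and H4 form the core of the nucleosome, and H1 binds the linker DNA between nucleosomes. Most clustered histone genes are intronless, lie close together in a few gene clusters, and are transcribed mainly in S phase, when new DNA has to be packaged. Their mRNAs are unusual in ending in a conserved stem-loop, bound by SLBP and cut with the help of the U7 small nuclear ribonucleoprotein, in place of a poly(A) tail. Some of these genes can also give polyadenylated mRNAs that run past the stem-loop, described chiefly in cells that leave the cycle or differentiate. The labels name the library kit but not whether polyadenylated RNA was selected, so tailed and untailed histone mRNAs cannot be told apart in these counts.

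The stem-loop was read from the GENCODE v29 transcripts (GRCh38), because it is the element that sets these mRNAs apart. The pattern GGC, any base, CTTTT, any base, AG, any base, GCC, in direct succession and on the transcript's own strand, was found in a transcript of 32 of the 73 genes and in 0.07% of all 57133 GENCODE genes. Many of the other models do not extend past the coding sequence, so a missing match says nothing about the gene. The stem-loops of 7 genes are shown with 5 bases before and 8 bases after, 5′ to 3′, with the 16 bases of the stem-loop in capitals. They were chosen from classes H2A, H2B and H4 to show both directions of change described below, after their values were seen. No H1 gene matched the pattern, and the H3 genes that did are not shown.
HIST1H2AC: ccaaaGGCTCTTTTCAGAGCCcccctacc
HIST1H2AG: ccaacGGCTCTTTTCAGGGCCacccacgt
HIST1H2BC: ccaaaGGCTCTTTTAAGAGCCacccagat
HIST2H2BE: ccaaaGGCTCTTTTCAGAGCCacccacct
HIST2H2BF: ccaaaGGCTCTTTTCAGAGCCacttcagt
HIST1H2BH: ccaaaGGCTCTTTTCAGAGCCacttaatg
HIST1H4H: ccaaaGGCCCTTTTCAGGGCCgcccactt
The 32 genes held 5 versions of the element. The version of HIST1H2AC was shared by 17 genes of classes H2A, H2B and H3, that of HIST1H4H by 5 genes, all of class H4, and that of HIST1H2BC by 5 genes of classes H2B and H3. The version of HIST1H2AG was held by 2 genes, and the last version by 3 genes of class H4. HIST2H2BE and HIST2H2BF, which were higher in shPIWIL4 cells, and HIST1H2BH, which was lower, carry the same 16 bases. In 23 of the 32 genes the annotated transcript ran more than 100 bases past the stem-loop, by 1114 bases in HIST1H2AC and 1640 bases in HIST1H2BH for example.

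The promoters were read from RefSeq (GRCh38.p14), whose table matched 65 of the 73 genes by symbol or synonym; HIST1H4C had no entry. The last 150 bases before the annotated start are shown for the called gene with the smallest p of classes H1, H2A, H2B and H3, for HIST3H2A and HIST1H3E as genes of those classes that were not called, and for HIST1H2BJ and HIST1H2BH, which were added after their values were seen as those with the largest positive and the only negative called change. They lie at chr6:26056471-26056620 (HIST1H1C, minus strand), chr6:26124022-26124171 (HIST1H2AC, plus strand), chr1:228457874-228458023 (HIST3H2A, minus strand), chr6:27146859-27147008 (HIST1H2BK, minus strand), chr6:27132796-27132945 (HIST1H2BJ, minus strand), chr6:26251464-26251613 (HIST1H2BH, plus strand), chr6:26199294-26199443 (HIST1H3D, minus strand) and chr6:26224028-26224177 (HIST1H3E, plus strand). Capitals mark matches on either strand to the octamer ATTTGCAT, to CCAAT and to TATAAA.
HIST1H1C: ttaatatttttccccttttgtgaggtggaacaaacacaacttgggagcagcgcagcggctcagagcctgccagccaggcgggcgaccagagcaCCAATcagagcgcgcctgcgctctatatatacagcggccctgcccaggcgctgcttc
HIST1H2AC: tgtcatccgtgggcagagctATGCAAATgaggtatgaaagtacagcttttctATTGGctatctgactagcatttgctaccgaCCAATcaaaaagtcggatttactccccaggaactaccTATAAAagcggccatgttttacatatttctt
HIST3H2A: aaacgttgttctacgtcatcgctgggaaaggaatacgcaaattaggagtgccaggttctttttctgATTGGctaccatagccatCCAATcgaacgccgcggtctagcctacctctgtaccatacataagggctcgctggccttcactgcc
HIST1H2BK: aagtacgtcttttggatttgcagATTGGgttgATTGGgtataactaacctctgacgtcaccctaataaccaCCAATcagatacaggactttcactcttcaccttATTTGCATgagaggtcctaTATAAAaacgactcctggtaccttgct
HIST1H2BJ: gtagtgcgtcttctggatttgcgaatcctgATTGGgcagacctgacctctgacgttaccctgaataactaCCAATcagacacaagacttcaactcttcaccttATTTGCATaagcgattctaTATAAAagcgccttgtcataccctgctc
HIST1H2BH: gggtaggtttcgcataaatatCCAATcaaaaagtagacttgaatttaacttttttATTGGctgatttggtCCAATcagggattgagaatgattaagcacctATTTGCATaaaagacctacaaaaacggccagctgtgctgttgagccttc
HIST1H3D: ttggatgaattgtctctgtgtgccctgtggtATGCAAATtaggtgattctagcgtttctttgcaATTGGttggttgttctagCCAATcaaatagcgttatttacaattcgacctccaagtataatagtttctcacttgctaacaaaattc
HIST1H3E: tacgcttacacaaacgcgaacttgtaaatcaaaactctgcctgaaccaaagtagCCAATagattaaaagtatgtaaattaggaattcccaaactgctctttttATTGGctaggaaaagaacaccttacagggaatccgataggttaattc
The octamer, which the factor encoded by POU2F1 is known to bind in H2B promoters, was present in these 150 bases in 77.8% of 18 H2B promoters, 31.2% of 16 H2A promoters, 8.33% of 12 H3 promoters and none of the 6 H1 or 13 H4 promoters, against 0.985% of all 27305 promoters in the table. These shares count some sites more than once. The matches of HIST1H2AA, HIST1H2AC, HIST1H2AD and HIST1H2AM are the same bases as those of HIST1H2BA, HIST1H2BC, HIST1H2BF and HIST1H2BO, whose stretches overlap theirs. The only H3 match, in HIST1H3D, lies in the same stretch as that of HIST1H2AD. CCAAT, which the NF-Y complex binds, was in every H1, H2A, H2B and H3 promoter of the set, in 23.1% of H4 promoters and in 24.4% of all promoters. TATAAA was in 55.4% of the 65 promoters and in 7.05% of all promoters. HIST1H2BH carries the octamer and CCAAT as HIST1H2BK and HIST1H2BJ do, but not TATAAA, which those genes have. Of the other H2B genes called higher, HIST1H2BD, HIST1H2BG and HIST2H2BE have TATAAA. HIST1H2BC, HIST1H2BF, HIST1H2BN and HIST2H2BF do not. TATAAA was in 45.5% of the 22 promoters of genes called higher and in 65.8% of the 38 promoters of untested genes. It was in 1 of the 5 promoters of genes tested and not called higher. Whether TATAAA goes with the direction of change was not tested. A match describes these letters and is not evidence of binding.

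The summed level of the clustered histone genes was higher in shPIWIL4 cells in every class. Class H2B was the most abundant, with 53.6 and 53.3 CPM in the shPIWIL4 libraries against 20.5 and 21.5 CPM in the Scrambled libraries, a ratio of 2.55. Class H1, the linker histones, had 16.5 and 16.3 CPM against 3.37 and 2.73 CPM, a ratio of 5.37. Class H2A had 6.71 and 6.35 CPM against 2.96 and 3.14 CPM, a ratio of 2.14. Both shPIWIL4 libraries lay above both Scrambled libraries in each of these sums.

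Class H3 had 2.57 and 1.98 CPM in shPIWIL4 cells against 0.944 and 0.985 CPM in Scrambled cells, a ratio of 2.36. Class H4 had 2.80 and 2.54 CPM against 0.818 and 0.568 CPM, a ratio of 3.85. All 73 genes together had 82.2 and 80.5 CPM against 28.5 and 28.9 CPM, which averaged 81.3 ± 1.22 CPM and 28.7 ± 0.249 CPM (SD, n = 2 each), a ratio of 2.83. They were 0.00822% and 0.00779% of the counts of the shPIWIL4 libraries and 0.00288% and 0.00295% of those of the Scrambled libraries, so the whole set is a very small share of either. With 2 libraries against 2, an exact two-sided permutation test cannot give a p below 0.333, so these sums are given without a test. In bulk RNA, fewer cells of a type and less RNA per cell cannot be told apart, and the same holds for the share of cells in S phase.

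**Figure D1:**
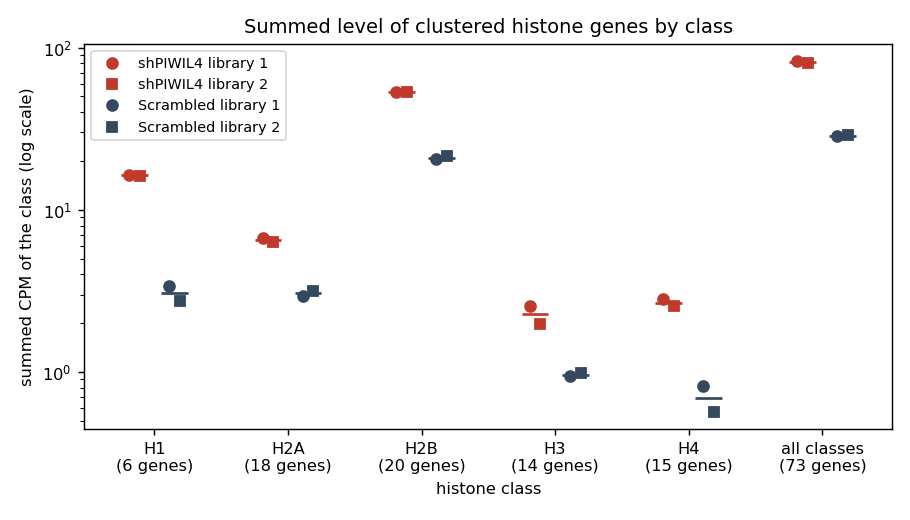
Summed TMM-scaled CPM of the genes of each histone class in each library, on a log axis; circles and squares are libraries 1 and 2 of shPIWIL4 (red) and Scrambled (dark blue) cells, and short lines are group means. The shPIWIL4 libraries lie above the Scrambled libraries in each class, by 2.14-fold in H2A and 5.37-fold in H1.

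A few genes carried most of the signal. HIST1H2BK, HIST2H2BF, HIST1H1C and HIST2H2BE, the 4 most abundant genes over all libraries, summed to 61.2 and 61.1 CPM in shPIWIL4 cells against 19.7 and 19.7 CPM in Scrambled cells, a ratio of 3.11. The other 69 genes summed to 21.0 and 19.3 CPM against 8.88 and 9.20 CPM, a ratio of 2.23, so both parts were higher. Per length, in TPM as deposited, HIST1H2BK was the most abundant histone gene in shPIWIL4 cells, with a mean of 65.6 TPM against 11.6 TPM in Scrambled cells. HIST1H1C followed with 44.6 TPM against 7.73 TPM, and HIST2H2BF with 21.1 TPM against 16.4 TPM. HIST2H2BF ranked 3 in TPM in shPIWIL4 cells and 1 in Scrambled cells, and HIST1H2BH ranked 7 in shPIWIL4 cells and 3 in Scrambled cells. HIST1H2BH averaged 5.34 TPM in shPIWIL4 cells and 8.08 TPM in Scrambled cells.

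Of the 73 genes, 29 had enough counts to be tested, and 23 of these were higher in shPIWIL4 cells, 1 was lower and 5 were not called (edgeR's quasi-likelihood test, adjusted p under 0.05 over all 16108 genes tested). Over all genes tested, 28.7% were called higher and 29.1% lower, 57.7% in all, around a median of -0.0034 on the log2 scale; the median of the 29 histone genes was 1.80. With upper-quartile factors in place of TMM the split over all genes was 3446 higher and 5717 lower, around a median of -0.12, and 20 histone genes were higher and 1 lower. With DESeq2 in place of edgeR, 10 of these 23 were called higher, beside 23.7% of all genes with an adjusted p: HIST1H1C, HIST1H2AC, HIST1H2AG, HIST1H2BC, HIST1H2BD, HIST1H2BJ, HIST1H2BK, HIST2H2BE, HIST1H4C and HIST1H4H. DESeq2 called 20.7% of all genes lower, HIST2H2BA among them.

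The filter on low counts bears on these numbers. It asks for about 0.195 CPM in 2 libraries, and 19 of the 29 genes met it in the shPIWIL4 libraries and not in both Scrambled libraries, so they entered the test only because they differed. No support is drawn from their count, nor from the median of 1.80 and the counts by class, cluster and transcript given further on, which include them. The other 10 met it in both Scrambled libraries: HIST1H1C, HIST1H2AC, HIST2H2AC, HIST3H2A, HIST1H2BD, HIST1H2BH, HIST1H2BK, HIST2H2BC, HIST2H2BE and HIST2H2BF. Among these 10, 6 were higher, 1 was lower and 3 were not called; their median was 0.76 on the log2 scale. Of all 15732 genes that met the minimum in both Scrambled libraries, 28.5% were higher and 29.8% lower. With no filter, 27 of the 70 histone genes with a count were higher and 2 lower, beside 24.0% and 21.4% of all genes. With a minimum of 100 counts in place of 10, 5 histone genes were left, of which 4 were higher and none lower, beside 30.3% of all genes in each direction.

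**Figure D2:**
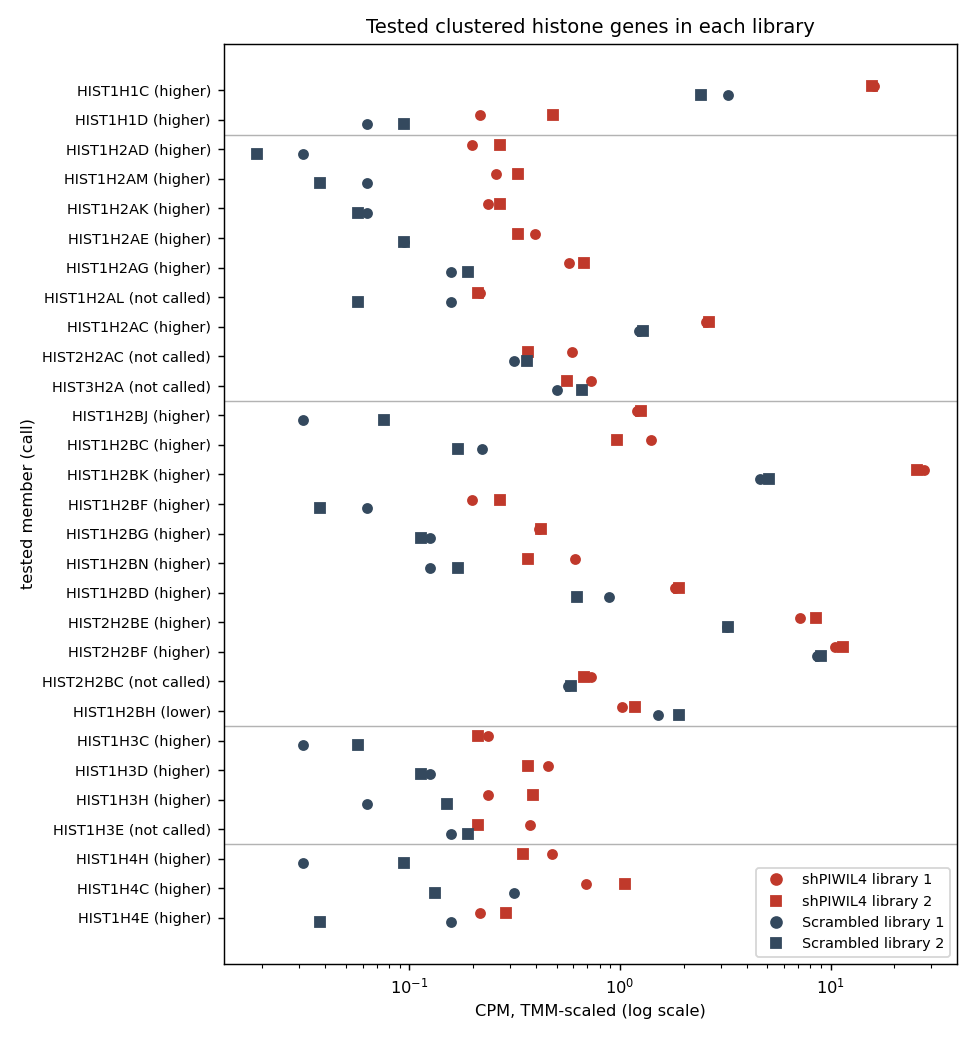
TMM-scaled CPM of the 29 tested clustered histone genes in each library, on a log axis, grouped by class from H1 at the top to H4 at the bottom, with the call beside each name; red marks are shPIWIL4 libraries and dark blue marks Scrambled libraries, circles library 1 and squares library 2. In 27 genes both shPIWIL4 libraries lie above both Scrambled libraries, in HIST1H2BH they lie below, and in HIST3H2A the groups overlap. Over all genes tested, 39.1% lie above and 39.5% below. Of the 29 genes, 19 entered the test through the shPIWIL4 libraries alone, so no support is drawn from the 27.

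In class H1, both tested genes were higher. HIST1H1C, a linker histone gene expressed in most cell types, had 810 and 812 counts in the shPIWIL4 libraries against 103 and 128 counts in the Scrambled libraries, or 16.0 and 15.6 CPM against 3.24 and 2.42 CPM. The groups were far apart, and its log2 fold change was 2.51 (SE 0.15, adjusted p = 2.0e-06 in edgeR). It made up 96.6% of the class H1 sum in shPIWIL4 cells and 93.0% in Scrambled cells, so the class total is close to a measure of this gene. HIST1H1D had 11 and 25 counts against 2 and 5 counts, a ratio of summed counts per scaled library of 4.24 (exact 95% counting interval 1.86 to 11.3), with a log2 fold change of 2.05 (adjusted p = 0.014). Library 2 held most of its shPIWIL4 counts, both shPIWIL4 libraries lay above both Scrambled libraries, and the call was lost without shPIWIL4 library 2 (adjusted p = 0.12).

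In class H2A, 6 of 9 tested genes were higher and 3 were not called, with log2 fold changes between 0.10 and 3.17. HIST1H2AC, the most abundant of the class, had 130 and 138 counts in shPIWIL4 cells against 39 and 68 counts in Scrambled cells, or 2.57 and 2.65 CPM against 1.23 and 1.29 CPM. Replicates lay close together in both groups, and the log2 fold change was 1.05 (SE 0.17, adjusted p = 0.00064 in edgeR). HIST1H2AG had 29 and 35 counts against 5 and 10 counts, with a log2 fold change of 1.80 (SE 0.34, adjusted p = 0.0016). HIST1H2AD had 10 and 14 counts against 1 and 1 counts, a ratio of 9.89 with a counting interval of 2.45 to 86.3, so its size is poorly known (adjusted p = 0.0035). All 3 encode core H2A proteins that differ little in sequence from one another.

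HIST1H2AM, HIST1H2AE and HIST1H2AK were also higher. HIST1H2AM had 13 and 17 counts in shPIWIL4 cells against 2 and 2 counts in Scrambled cells, a ratio of 6.18 (counting interval 2.18 to 24.1). HIST1H2AE had 20 and 17 counts against 3 and 5 counts, a ratio of 3.81 (1.75 to 9.47). HIST1H2AK had 12 and 14 counts against 2 and 3 counts, a ratio of 4.28 (1.62 to 14.3). The HIST1H2AM and HIST1H2AK calls were lost without Scrambled library 2 (adjusted p = 0.0504 and 0.092). The groups were apart in each of them, with the intervals wide at these counts. HIST1H2AL (11 and 11 counts against 5 and 3 counts, adjusted p = 0.10) and HIST2H2AC (30 and 19 counts against 10 and 19 counts, adjusted p = 0.27) did not pass the test. HIST3H2A, from the small cluster on chromosome 1, had 37 and 29 counts against 16 and 35 counts, or 0.730 and 0.558 CPM against 0.504 and 0.663 CPM; its groups overlapped and its log2 fold change was 0.10 (SE 0.28, adjusted p = 0.78).

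In class H2B, 9 of 11 tested genes were higher, 1 was lower and 1 was not called. HIST1H2BK had 1403 and 1329 counts in shPIWIL4 cells against 147 and 268 counts in Scrambled cells, or 27.7 and 25.6 CPM against 4.63 and 5.08 CPM. Its log2 fold change of 2.45 (SE 0.11) had the smallest adjusted p of the set, 5.7e-07 in edgeR, and the gene gave 49.8% of the class H2B sum in shPIWIL4 cells. HIST1H2BJ had 61 and 65 counts against 1 and 4 counts, or 1.20 and 1.25 CPM against 0.0315 and 0.0758 CPM. It was nearly undetected in Scrambled cells and clearly present in shPIWIL4 cells: the ratio was 20.8 with a counting interval of 8.67 to 65.0, and the log2 fold change of 4.32 (SE 0.39, adjusted p = 1.9e-05) was the largest of the 29.

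HIST2H2BE had 360 and 443 counts in shPIWIL4 cells against 102 and 172 counts in Scrambled cells, or 7.10 and 8.52 CPM against 3.21 and 3.26 CPM, with a log2 fold change of 1.27 (SE 0.14, adjusted p = 7.4e-05). This gene is known for giving polyadenylated as well as stem-loop mRNA, and its model in the files, recovered from counts and FPKM, is 2223 bases long, the longest of the set. HIST1H2BC had 71 and 50 counts against 7 and 9 counts, with a log2 fold change of 2.62 (SE 0.35, adjusted p = 0.00019). HIST1H2BD had 92 and 99 counts against 28 and 33 counts, with a log2 fold change of 1.35 (SE 0.22, adjusted p = 0.00068). HIST1H2BG (21 and 22 counts against 4 and 6), HIST1H2BN (31 and 19 against 4 and 9) and HIST1H2BF (10 and 14 against 2 and 2) were higher at low counts, the last not without Scrambled library 2 (adjusted p = 0.12).

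The remaining H2B genes did not share that size of change. HIST2H2BF, which gave 41.8% of the class H2B sum in Scrambled cells, had 528 and 593 counts in shPIWIL4 cells against 273 and 472 counts in Scrambled cells, or 10.4 and 11.4 CPM against 8.59 and 8.94 CPM. Its log2 fold change was 0.31 (SE 0.11, adjusted p = 0.037), and the call was lost under DESeq2 (adjusted p = 0.099) and with upper-quartile scaling (adjusted p = 0.16), as well as in 6 other alternatives. HIST1H2BH had 52 and 61 counts against 48 and 101 counts, or 1.03 and 1.17 CPM against 1.51 and 1.91 CPM, and was the only tested member called lower, with a log2 fold change of -0.66 (SE 0.20, adjusted p = 0.020). Both shPIWIL4 libraries lay below both Scrambled libraries, but the call was lost under DESeq2 (adjusted p = 0.18) and without Scrambled library 2 (adjusted p = 0.27). HIST2H2BC, a pseudogene, had 37 and 35 counts against 18 and 31 counts and did not pass the test (adjusted p = 0.37).

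**Figure D3:**
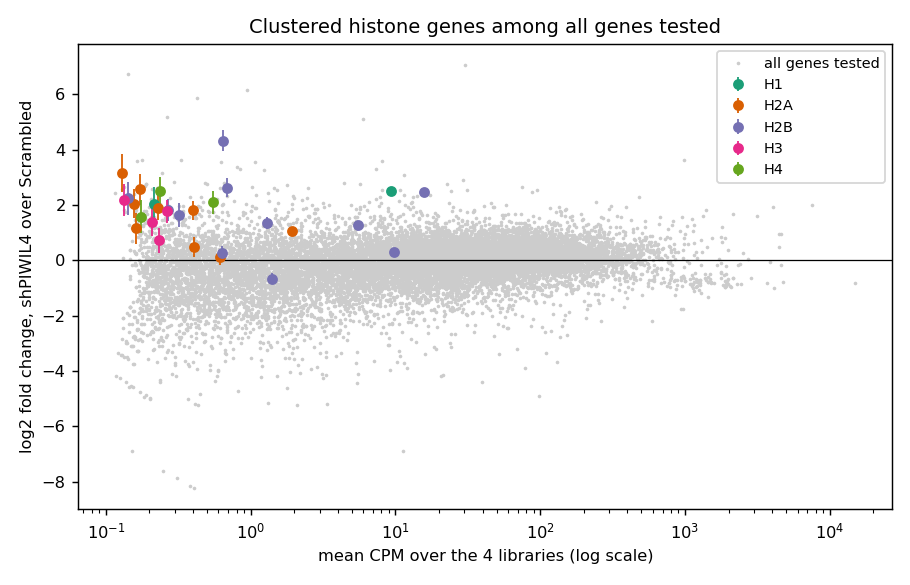
Log2 fold change of shPIWIL4 over Scrambled cells against the mean CPM over the 4 libraries (log axis) for all 16108 genes tested (grey) and the 29 clustered histone genes coloured by class, with bars of 1 SE. Most histone genes lie below 1 CPM and above a log2 fold change of 1; HIST1H2BH is the one histone gene below 0.

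In class H3, 3 of 4 tested genes were higher. HIST1H3D had 23 and 19 counts in shPIWIL4 cells against 4 and 6 counts in Scrambled cells, or 0.454 and 0.366 CPM against 0.126 and 0.114 CPM, with a log2 fold change of 1.77 (SE 0.41, adjusted p = 0.0051 in edgeR). In RefSeq it has the same start as HIST1H2AD and runs across it, so the stretch shown above stands before both genes and their reads may be shared. HIST1H3C had 12 and 11 counts against 1 and 3 counts, a ratio of 4.74 (counting interval 1.62 to 18.8), a call lost without Scrambled library 1 (adjusted p = 0.057) or 2 (0.052). HIST1H3H had 12 and 20 counts against 2 and 8 counts, a ratio of 2.64 (counting interval 1.26 to 6.01, adjusted p = 0.042), a call lost under DESeq2 (adjusted p = 0.23), with upper-quartile factors or library totals (0.061 each), without shPIWIL4 library 2 (0.21) and without Scrambled library 1 (0.17). HIST1H3E had 19 and 11 counts against 5 and 10 counts and did not pass the test (adjusted p = 0.20). No H3 gene reached 1 CPM in any library, which limits all of these values.

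In class H4, all 3 tested genes were higher. HIST1H4C, the most abundant H4 gene here, had 35 and 55 counts in shPIWIL4 cells against 10 and 7 counts in Scrambled cells, or 0.691 and 1.06 CPM against 0.315 and 0.133 CPM. Replicates were uneven in both groups, but the groups did not overlap, and the log2 fold change was 2.10 (SE 0.41, adjusted p = 0.0020 in edgeR). HIST1H4H had 24 and 18 counts against 1 and 5 counts, a ratio of 5.77 (counting interval 2.44 to 16.6, adjusted p = 0.0027). HIST1H4E had 11 and 15 counts against 5 and 2 counts, a ratio of 3.06 (counting interval 1.29 to 8.35). Its adjusted p of 0.048 was close to the threshold and the call was lost in 6 alternatives: without Scrambled library 2 (adjusted p = 0.50), without shPIWIL4 library 2 (0.12), under DESeq2 (0.30), with upper-quartile factors (0.069), with library totals (0.070) and with no filter (0.055).

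The 44 untested genes had at most 18 counts in any library, and 3 of them, HIST1H2AA, HIST1H2BA and HIST1H2APS1, had none. HIST1H2AA and HIST1H2BA encode histones known from testis, and HIST1H2APS1 is a pseudogene. Of the other testis-type genes, HIST1H1T had 0 and 2 counts in shPIWIL4 cells against 1 and 0 counts in Scrambled cells, and HIST3H3 had 1 and 0 counts against 2 and 7 counts. In CPM, 20 of the 44 had both shPIWIL4 libraries above both Scrambled libraries, 3 had them below and 21 overlapped or were at 0. Over all genes tested, 39.1% lay above and 39.5% below, but those genes passed the filter, so the shares are not on a like footing. The 20 include HIST1H4G, HIST2H4A and HIST2H4B at 1 and 1 counts against 0 and 0 counts.

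The 13 untested genes with 10 or more counts in a library were HIST1H2AI, HIST2H2AB, HIST1H2BO, HIST3H2BB, HIST1H3A, HIST1H3B, HIST1H3F, HIST1H3J, HIST2H3D, HIST1H4D, HIST1H4F, HIST1H4K and HIST4H4. In each of them the highest raw count was in a shPIWIL4 library. No support is drawn from this, as they were picked by their highest raw count and the libraries differ in depth. HIST2H3D had 18 and 10 counts in shPIWIL4 cells against 4 and 3 counts in Scrambled cells. HIST1H4F had 12 and 7 counts against 1 and 1 counts. HIST4H4, the single gene of its locus, had 15 and 4 counts against 2 and 5 counts, so its groups overlapped.

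In 6 genes both Scrambled libraries were at 0 and both shPIWIL4 libraries were not. HIST1H4G, HIST2H4A and HIST2H4B had 1 and 1 counts in shPIWIL4 cells, which is too few for a fold. The others were HIST1H2BB with 4 and 7 counts, HIST1H4A with 6 and 4 counts and HIST1H4B with 4 and 7 counts. Set against the 3 counts that a count of 0 over the group allows, these last had ratios of 3.02, 2.75 and 3.02. The ratios take the shPIWIL4 counts as exact, so they are not lower limits. These genes were also picked for being at 0 in both Scrambled libraries. The pseudogene HIST2H2BA went the other way, with 0 and 1 counts in shPIWIL4 cells against 9 and 9 counts in Scrambled cells; it was singled out after its values were seen. HIST2H2AA3 and HIST2H2AA4 had the same counts as each other in all 4 libraries, as did HIST2H3A and HIST2H3C, and HIST2H4A and HIST2H4B, which are duplicated copies whose reads cannot be told apart.

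By gene cluster, HIST1 on chromosome 6 held 24 tested genes, of which 21 were higher and 1 lower; their median was 1.98 on the log2 scale. HIST2 on chromosome 1 held 4 tested genes, of which 2 were higher, with a median of 0.40, and the 1 tested HIST3 gene was not called. Of the 24 HIST1 genes, 19 had met the filter through the shPIWIL4 libraries alone, while the 4 HIST2 genes had met it in both Scrambled libraries, so these medians are not on a like footing, and whether the clusters differ was not tested. Many H2A and H2B genes lie head to head and share the stretch between their starts: by the order of genes in RefSeq, 11 such divergent pairs were found, and in 6 of them both genes were tested. Both genes were higher in 5 of these 6 pairs, HIST1H2AC with HIST1H2BC, HIST1H2AD with HIST1H2BF, HIST1H2AE with HIST1H2BG, HIST1H2AG with HIST1H2BJ and HIST1H2AK with HIST1H2BN; most of these genes met the filter through the shPIWIL4 libraries. The partners differed in size, 1.05 for HIST1H2AC and 2.62 for HIST1H2BC, and 1.80 for HIST1H2AG and 4.32 for HIST1H2BJ, on the log2 scale. In the sixth pair HIST2H2BE was higher and HIST2H2AC was not called.

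Among the genes whose annotated transcript runs more than 100 bases past the stem-loop, 14 were tested, 11 of them higher and 1, HIST1H2BH, lower. The 2 tested genes whose transcript ends within 100 bases of it, HIST1H2AE and HIST1H2BD, were both higher. These are GENCODE transcripts and not the models on which the reads were counted. The counted models of HIST1H2BH and HIST1H2AC are 425 and 546 bases long, and that of HIST1H2BD is 861 bases. The split therefore does not say whether reads past the stem-loop were counted. In the files' own models, 6 of the 70 genes with a recovered length were over 1000 bases. The 2 of these that were tested, HIST2H2BE and HIST2H2BF, were both higher. The untested ones, HIST2H2AA3, HIST2H2AA4, HIST2H3A and HIST2H3C, are duplicated copies with shared counts. The models of HIST2H2AA3 and HIST2H2AA4 are 1068 bases, beside GENCODE transcripts of 549 and 564 bases, so a long model need not mean a longer 3′ end. All remaining models were 1000 bases or less, down to 354 bases.

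In the 7 lists of genes around histone supply, the medians lay between 0.06 and 0.42 on the log2 scale, beside 0.76 for the 10 histone genes that met the filter in both Scrambled libraries and -0.0034 for all genes tested. The counts below stand beside 28.7% higher and 29.1% lower over all genes tested, and no list was tested as a whole. Among 15 genes of histone mRNA processing, 9 were higher and 2 lower; the median change on the log2 scale was 0.42. SLBP, which binds the stem-loop, had 93.7 and 98.0 CPM in shPIWIL4 cells against 67.0 and 68.3 CPM in Scrambled cells, a log2 fold change of 0.50 (SE 0.08, adjusted p = 0.00055 in edgeR). NCBP1, a subunit of the cap-binding complex, had 113 and 127 CPM against 67.4 and 65.2 CPM, a log2 fold change of 0.86. NCBP2, the other subunit of that complex, was lower with -0.23 (adjusted p = 0.033 in edgeR). LSM10, a protein of the U7 particle, rose by 0.66 on the log2 scale and CPSF3, the endonuclease that cuts the mRNA, by 0.63, while LSM11, the partner of LSM10 in that particle, was lower with -0.46, a call lost without Scrambled library 2 (adjusted p = 0.13). NPAT, the S-phase coactivator of histone gene transcription, was higher with 0.27, a call lost in 7 alternatives (adjusted p = 0.054 to 0.22), among them those without Scrambled library 1 or 2.

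Of 12 genes of histone mRNA decay, 5 were higher and 4 lower, with a median of 0.13, beside 28.7% and 29.1% over all genes tested. ZCCHC11, a terminal uridylyltransferase that has been linked to the decay of histone mRNA, had 62.7 and 70.2 CPM in shPIWIL4 cells against 136 and 132 CPM in Scrambled cells, a log2 fold change of -1.01 (SE 0.09, adjusted p = 1.5e-05 in edgeR). XRN1, the main cytoplasmic 5′ to 3′ exonuclease, had 47.6 and 51.4 CPM against 81.4 and 87.7 CPM, a log2 fold change of -0.77. LSM1 and LSM4, subunits of the ring that binds the mRNA end, were higher with 0.61 and 0.50. UPF1 (0.53), PNPT1 (0.50) and EXOSC10 (0.29) were also higher, and ZCCHC6 (-0.41) was also lower. ERI1, the exonuclease that trims the stem-loop, was among the lower genes, a call lost without Scrambled library 1 (adjusted p = 0.092) or 2 (0.13).

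Among 20 S-phase genes, 10 were higher (beside 28.7% over all genes tested), none was lower and 10 were not called, with a median of 0.28. E2F1, a transcription factor of S-phase entry, had 73.5 and 64.9 CPM in shPIWIL4 cells against 38.9 and 39.5 CPM in Scrambled cells, a log2 fold change of 0.82. CCNA2, the S-phase cyclin, was higher with 0.70, MCM5 of the replicative helicase with 0.60 and CDC45 with 0.53. The part of these differences in the histone values was not tested.

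Of 12 variant histone genes, which lie outside the clusters and give polyadenylated mRNA in all cell cycle phases for the most part, 4 were higher (33.3%, beside 28.7% over all genes tested) and 3 lower, with a median of 0.06. H2AFV (0.70), H2AFY (0.52), CENPA (0.47) and H2AFZ (0.42) were higher, given as log2 fold changes. H1FX (-0.66), H1F0 (-0.47) and H3F3B (-0.40) were lower, H1FX not under DESeq2 (adjusted p = 0.17) or with no filter (0.19). H1F0, a linker histone variant, had 199 and 199 CPM in shPIWIL4 cells against 275 and 277 CPM in Scrambled cells, the opposite direction to HIST1H1C. H2AFX, H2AFY2, H2AFJ, H3F3A and H3F3C did not pass the test.

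Of 20 histone chaperone genes, 8 were higher (40.0%) and 4 lower, with a median of 0.13, beside 28.7% and 29.1% over all genes tested; UBN1 (0.69), CHAF1A (0.60) and HIRA (0.60) were higher and RBBP4 (-0.73) was lower on the log2 scale. Of 9 tested transcription factor genes tied to histone promoters, 4 were higher (44.4%) and 2 lower, with a median of 0.18. POU2F1, which binds the octamer, was higher with 0.48, and NFYB and NFYA, subunits of the CCAAT-binding complex, with 0.45 and 0.40. NFYC, another subunit of that complex, was not called (0.18). TBP was higher with 0.31, and SP1 and YY1 were lower with -0.31 and -0.26. Of 13 genes of general mRNA polyadenylation, 2 were higher (15.4%) and 1 lower, with a median of 0.08; NUDT21 and PABPC1 were higher with 0.40 and 0.31, and WDR33 was lower with -0.28. The PABPC1 and WDR33 calls were lost with a replicate block (adjusted p = 0.12 and 0.078) and without Scrambled library 1 (0.078 and 0.12) or 2 (0.18 and 0.12).

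**Figure D4:**
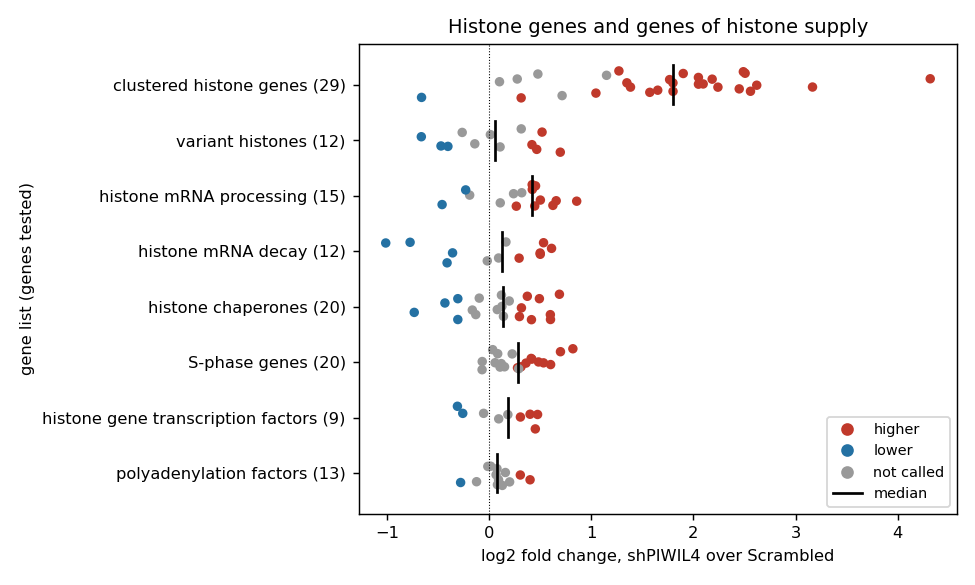
Log2 fold change of shPIWIL4 over Scrambled cells for each tested gene of the clustered histone set and of 7 lists around histone supply, coloured by call (red higher, blue lower, grey not called), with the median of each list as a black line. The histone line at 1.80 includes 19 genes that entered the test through the shPIWIL4 libraries alone, and the other 10 had a median of 0.76; the medians of the other lists lie between 0.06 and 0.42.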

How the data were processed

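Raw read counts per gene, FPKM and TPM were deposited by the authors, 1 file per library. Per the submitters' processing notes, STAR, featureCounts and DESeq2 were used with hg19; versions, annotation, strand setting and treatment of multiply mapped reads are not stated there. From the deposited counts, edgeR 4.0.16 (R 4.3.3) was run on all 25680 genes: filterByExpr (minimum count 10, total 15), TMM factors, quasi-likelihood F test, Benjamini-Hochberg adjustment, calls at 0.05; the SE is the log2 fold change divided by the root of F. The deposited TPM gave levels per length, and deposited FPKM with counts gave model lengths. Counting intervals (exact, 95%) cover counting error only, and ratios against a count of 0 cover only that of the Scrambled libraries. The test was run on simulated data with known changes. Alternatives were other scalings and filters, DESeq2 1.42.0, a replicate block and leaving out each library. Members, lists and markers were chosen with earlier results of these data known, and so were the tests. All tested members are named, and untested ones where a library had 10 counts or more or for testis-type genes. From each list the called genes with the smallest p are named, with some others added after their values were seen. Counts of replicates differed beyond sampling noise (chi-square per gene 27.9 in shPIWIL4 and 7.89 in Scrambled libraries). One marker list is not reported here.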

Additional observations from a re-analysis of the deposited data

How the results depend on the processing

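Every tested member kept the direction of its fold change under every alternative run that could test it, except HIST3H2A, which was not called and had a log2 fold change of -0.017 with upper-quartile factors, -0.10 without shPIWIL4 library 1, -0.017 without Scrambled library 1 and up to 0.36 without the others in turn. The count of members called higher was 20 with upper-quartile factors or library totals, 23 with DESeq2 size factors and 22 with a replicate block. It was 27 with no filter, of 70 then tested, beside 24.0% of all genes. It was 4 with the stricter filter, which left 5 members, and 10 with DESeq2, which gave 50 members an adjusted p and 20 none. Leaving out 1 library left a group with 1 library and changed which members were tested, so its counts of higher members are not set beside these. Some calls were lost in that way, and some members untested in the main fit were called, such as HIST1H4K and HIST4H4 without shPIWIL4 library 2. HIST1H1C, HIST1H2AC, HIST1H2AG, HIST1H2BC, HIST1H2BD, HIST1H2BJ, HIST1H2BK, HIST2H2BE, HIST1H4C and HIST1H4H were called higher under every alternative except that the stricter filter did not test 6 of them. The count called lower was 2 with no filter (HIST1H2BH and HIST2H2BA), 0 with the stricter filter, 1 with DESeq2 (HIST2H2BA in place of HIST1H2BH) and 0 to 2 when 1 library was left out, 0 being without Scrambled library 2. Over the other lists together, the replicate block lowered the count of lower genes to 9, and leaving out 1 library gave 9 to 17. Upper-quartile factors shifted the median of all genes to -0.12 and gave class total log2 ratios of 0.98 for H2A, 1.23 for H2B and 1.38 for all classes; library totals gave 1.46 for all classes. The cause of these shifts was not tested, apart from the smaller number of genes left by the stricter filter. The titles give both groups the marks exp. rep1 and exp. rep2, but same-numbered libraries deviated in opposite ways (correlation -0.552 over 16108 genes). Whether same-numbered libraries were made together cannot be told from this value. With the replicate block 22 members were higher and 1 lower. A crossed pairing, chosen after seeing the data, gave 23 and 1. Depth limits the 22 tested members under 1 CPM and all untested ones.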
